A study of Rattus norvegicus with 48 samples.

Results

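The miR-200 family is a set of 5 mature miRNAs, rno-miR-200a-3p, rno-miR-200b-3p, rno-miR-200c-3p, rno-miR-141-3p and rno-miR-429 (written below without the rat prefix), and its levels were followed in serum and ulna bone of diabetic and non-diabetic rats. The members were taken by name, as the 3p arms of miR-200a, miR-200b, miR-200c and miR-141 plus every entry whose name began with miR-429, which was a single entry. They were 5 of 763 mature rat miRNAs listed in each library and 5 of the 629 that had at least 1 read in any library. Small RNA was sequenced from 32 sera and 16 ulna bones, and reads were counted on each mature miRNA.

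ZDF rats carry a homozygous leptin receptor mutation and develop diabetes spontaneously, and lean non-diabetic rats (WT) were the controls. Both ate a high-fat, high-carbohydrate chow from the start of the study. All rats were male and 11 weeks old at the start, all had a surgical defect in the femur, and all samples were taken after 12 weeks of treatment, so no group was free of the diet or the injury. The serum groups were WT placebo, ZDF placebo, WT PTH and ZDF PTH with 5 rats each, and WT anti-sclerostin, ZDF anti-sclerostin and ZDF insulin with 4 rats each. The bone groups were WT placebo, ZDF placebo, WT PTH and ZDF PTH with 4 rats each. Per the study's methods, PTH (parathyroid hormone) was given at 75 µg/kg 5 times a week, an antibody against sclerostin at 25 mg/kg 2 times a week, and insulin every day at 0.5 IU at first and 13 IU at the end. Bone and serum were taken from shared animals apart from 2 of the 4 ZDF PTH bones, and no label ties a given bone to its serum. Replicate numbers below only name a library.

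MiR-200 miRNAs are found mainly in epithelial cells, where they hold down the transcription factors Zeb1 and Zeb2, which repress E-cadherin and other epithelial genes. Loss of the family goes with a shift of epithelial cells toward a mesenchymal state, and mesenchymal cells such as osteoblasts and fibroblasts are known for low levels. The miRNAs are made from a pair of gene clusters, and a miRNA's seed, the bases that pair with a target first, splits the family into 2 groups that do not follow the clusters.

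In the rat assembly GRCr8 as annotated by RefSeq, the hairpins of miR-200b, miR-200a and miR-429 lay on the minus strand at chr5:171929682-171931589. That span of 1908 bases overlapped the gene entries Ttll10, LOC106182250 and Mir3548. The hairpins of miR-200c and miR-141 lay on the minus strand at chr4:159209525-159210033, a span of 509 bases. It overlapped the gene entry Mir3575 and lay 964 bases from Phb2 and 2287 bases from Ptpn6. Mature sequences were matched for 2 of the 5 members and hairpins for 5 of 5. The sequences are shown because they set the seed groups and the pairs of members whose reads are hard to tell apart. Capitals mark the seed, bases 2 to 8 of the mature miRNA, or the same letters within a hairpin, and all are written 5′ to 3′. The mature sequences of miR-200c-3p (chr4:159209969-159209989) and miR-141-3p (chr4:159209540-159209561) are followed by the hairpins of miR-200b (chr5:171931495-171931589), miR-200a (chr5:171930717-171930805) and miR-429 (chr5:171929682-171929766), all on the minus strand.
rno-miR-200c-3p: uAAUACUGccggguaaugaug
rno-miR-141-3p: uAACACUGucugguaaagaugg
Mir200b hairpin: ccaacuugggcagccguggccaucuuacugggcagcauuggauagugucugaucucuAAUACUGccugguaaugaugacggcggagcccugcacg
Mir200a hairpin: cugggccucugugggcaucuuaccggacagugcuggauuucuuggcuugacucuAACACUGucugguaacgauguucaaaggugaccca
Mir429 hairpin: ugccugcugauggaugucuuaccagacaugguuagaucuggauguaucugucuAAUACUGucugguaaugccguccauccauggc

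The letters AAUACUG stood in the hairpins of miR-200b, miR-200c and miR-429, and AACACUG in those of miR-200a and miR-141, so each cluster held both seeds. Searched as written on the hairpin strand, each run of letters was found in 4 of 419 rat hairpins (0.955%). Besides the family these were Mir145 for the first, and Mir3575 and Mir3587 for the second. Mir3575 overlaps the chr4 cluster itself, so it is not a separate locus. Over 21 bases from the base before the seed, miR-200b and miR-200c differed at 1 position, and so did miR-200a and miR-141, while every other pair differed at 3 or 4. The authors allowed 1 mismatch when mapping to mature miRNAs, so reads of miR-200b and miR-200c, or of miR-200a and miR-141, could have been counted on the partner. In the serum of WT placebo replicate 3, 139 reads were counted on miR-200a-3p and 4 on miR-141-3p, so in that library few reads, if any, had crossed from miR-200a-3p.

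The family was present in every serum at a low level and was scarcer in bone. Serum libraries held 28015 to 205664 miRNA reads, of which 27 to 334 (median 76.5) were on the family, or 273 to 5099 (median 972) per 1000000 miRNA reads. Bone libraries held 41627 to 1398702 miRNA reads, of which 0 to 135 (median 13.5) were on the family, or 0 to 390 (median 56.5) on that scale. MiRNAs made up 1.60% ± 0.837 (SD, n = 32) of all reads in serum and 8.69% ± 5.26 (SD, n = 16) in bone. Both tissues are mixtures, so fewer cells of a type and less RNA per cell cannot be told apart. Of 7 miRNAs listed as mesenchymal, 6 were higher and 0 lower in bone in placebo WT, and in placebo ZDF 5 were higher and 1, miR-140-3p, lower. Among all miRNAs tested, 187 of 509 were higher in bone in placebo WT and 209 of 504 in placebo ZDF. The summed level of the 7 was 75297 to 313423 CPM in bone and 25693 to 100964 in serum. CPM are counts per 1000000 miRNA reads, here scaled further within each tissue as described below. The ranges of the tissues are thus not on a common scale. The summed level of 4 striated muscle miRNAs, scaled in the same way, was 47869 to 456591 CPM in bone and 117 to 45255 in serum. The part of muscle in the tissue differences was not tested.

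MiR-200a-3p was the most abundant member in serum. Levels here are CPM of miRNA reads scaled by TMM, a normalization that sets the bulk of miRNAs equal between libraries, within each tissue. The median serum levels were 454 CPM for miR-200a-3p, 245 for miR-429, 112 for miR-141-3p, 59.2 for miR-200c-3p and 24.9 for miR-200b-3p. MiR-200a-3p, miR-429, miR-141-3p and miR-200c-3p had at least 1 read in 32 of 32 sera and miR-200b-3p in 26. In the 16 bones, miR-200a-3p, miR-200c-3p and miR-141-3p each had a read in 13, miR-429 in 12 and miR-200b-3p in 7.

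The make-up of the family differed between the tissues. Of 3210 family reads pooled over the sera, 56.9% were miR-200a-3p, 23.3% miR-429, 10.7% miR-141-3p, 6.29% miR-200c-3p and 2.90% miR-200b-3p. Of 425 pooled over the bones, 29.4% were miR-200c-3p, 25.2% miR-429, 22.1% miR-200a-3p, 16.5% miR-141-3p and 6.82% miR-200b-3p. The share of miR-200a-3p was 29.2% to 74.1% in the 32 sera and 0% to 38.5% in the 11 bones with at least 10 family reads. The share of miR-200c-3p was 1.89% to 16.1% in the same sera and 14.7% to 60.0% in the same bones. The tissues thus overlapped from 29.2% to 38.5% for miR-200a-3p and from 14.7% to 16.1% for miR-200c-3p.

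The other arms of the hairpins were rarer. MiR-200b-5p had 64 reads in all, in 25 of 32 sera, and miR-200a-5p had 22 reads in 17 sera, and neither had a read in the 16 bones. MiR-141-5p had no read in serum and 1 read in each of 3 bones, and miR-200c-5p had no read in any library. Thus the 5p reads in serum came from the chr5 cluster alone, at up to 5 reads per library.

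To compare the tissues, bone was set against serum in the 4 groups that had both. All 5 members were lower in bone in each of the 4 comparisons at FDR < 0.2, the threshold used throughout (edgeR quasi-likelihood test, Benjamini-Hochberg adjusted over all miRNAs tested). Lower levels in bone were common among all miRNAs tested, at 28.1% in placebo WT, 27.6% in placebo ZDF, 32.4% in PTH WT and 30.0% in PTH ZDF. All bones lay below all sera for 3 of 5 members in placebo WT, where this held for 13.6% of all miRNAs tested, for 3 in placebo ZDF (16.7%), for 4 in PTH WT (15.8%) and for 5 in PTH ZDF (15.8%).

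MiR-200a-3p showed the widest gap. In WT placebo rats it had 76, 46, 139, 42 and 31 reads in the sera and 1, 3, 2 and 32 in the bones. In ZDF placebo rats it had 19, 59, 46, 57 and 45 reads in the sera and 17, 1, 2 and 3 in the bones. All bones lay below all sera as CPM, also the 2 bones with 32 and 17 reads. The log2FC from serum to bone was -5.14 ± 0.62 (SE, FDR = 7.99e-15) in placebo WT and -4.35 ± 0.54 (FDR = 1.88e-14) in placebo ZDF. With another abundance filter, edgeR's filterByExpr, the FDR in placebo WT was 1.85e-05. The exact permutation p there was 0.00794, the smallest the design allows. Under PTH, the sera had 40, 18, 129, 40 and 28 reads in WT and 212, 37, 113, 58 and 26 in ZDF, and the bones had 1, 0, 5 and 8 in WT and 13, 0, 0 and 6 in ZDF. The log2FC was -5.37 ± 0.80 (FDR = 6.68e-10) in PTH WT and -6.36 ± 0.68 (FDR = 4.81e-19) in PTH ZDF.

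MiR-429, from the same cluster as miR-200a, had the next widest gap in placebo WT, PTH WT and PTH ZDF, and miR-141-3p in placebo ZDF. MiR-429 had 26, 11, 55, 21 and 9 reads in the WT placebo sera against 1, 0, 1 and 28 in the bones, a log2FC of -4.07 ± 0.64 (FDR = 1.81e-09). In ZDF placebo rats it had 23, 19, 42, 22 and 15 reads in serum against 31, 0, 11 and 2 in bone, a log2FC of -2.24 ± 0.51 (FDR = 3.95e-05). The groups did not overlap as CPM, although the bone with 31 reads reached 155 CPM, the highest of any bone. Under PTH the log2FC was -4.60 ± 0.87 (FDR = 1.43e-06) in WT and -4.78 ± 0.65 (FDR = 3.64e-12) in ZDF.

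MiR-141-3p, which shares its seed with miR-200a, had 16, 15, 4, 9 and 9 reads in the WT placebo sera and 2, 1, 2 and 19 in the bones. Its log2FC was -3.09 ± 0.66 (FDR = 2.11e-05) in placebo WT, -2.47 ± 0.58 (FDR = 6.93e-05) in placebo ZDF, -3.48 ± 0.90 (FDR = 0.000568) in PTH WT and -4.41 ± 0.70 (FDR = 3.81e-09) in PTH ZDF. Its levels in bone and serum did not overlap as CPM in any of the 4 comparisons.

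MiR-200c-3p differed least among the members compared by fold in placebo and PTH rats. It had 15, 5, 4, 4 and 10 reads in the WT placebo sera and 0, 5, 7 and 41 in the bones, and 9, 10, 14, 6 and 2 in the ZDF placebo sera and 11, 9, 5 and 5 in the bones. The groups overlapped in both. The log2FC was -1.47 ± 0.63 (FDR = 0.0451) in placebo WT, -1.69 ± 0.59 (FDR = 0.0106) in placebo ZDF, -2.40 ± 0.92 (FDR = 0.0258) in PTH WT and -2.05 ± 0.64 (FDR = 0.00393) in PTH ZDF. MiR-200b-3p had 5, 1, 10, 1 and 3 reads in the WT placebo sera and 0, 0, 0 and 15 in the bones (log2FC -2.28 ± 0.75, FDR = 0.00793). In ZDF placebo rats miR-200b-3p had 2, 1, 2, 3 and 2 reads in serum and 3, 0, 2 and 1 in bone, too few for a fold change (FDR = 0.0509). Under PTH its log2FC was -4.06 ± 1.17 (FDR = 0.00232) in WT and -3.26 ± 0.81 (FDR = 0.000205) in ZDF.

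**Figure D1:**
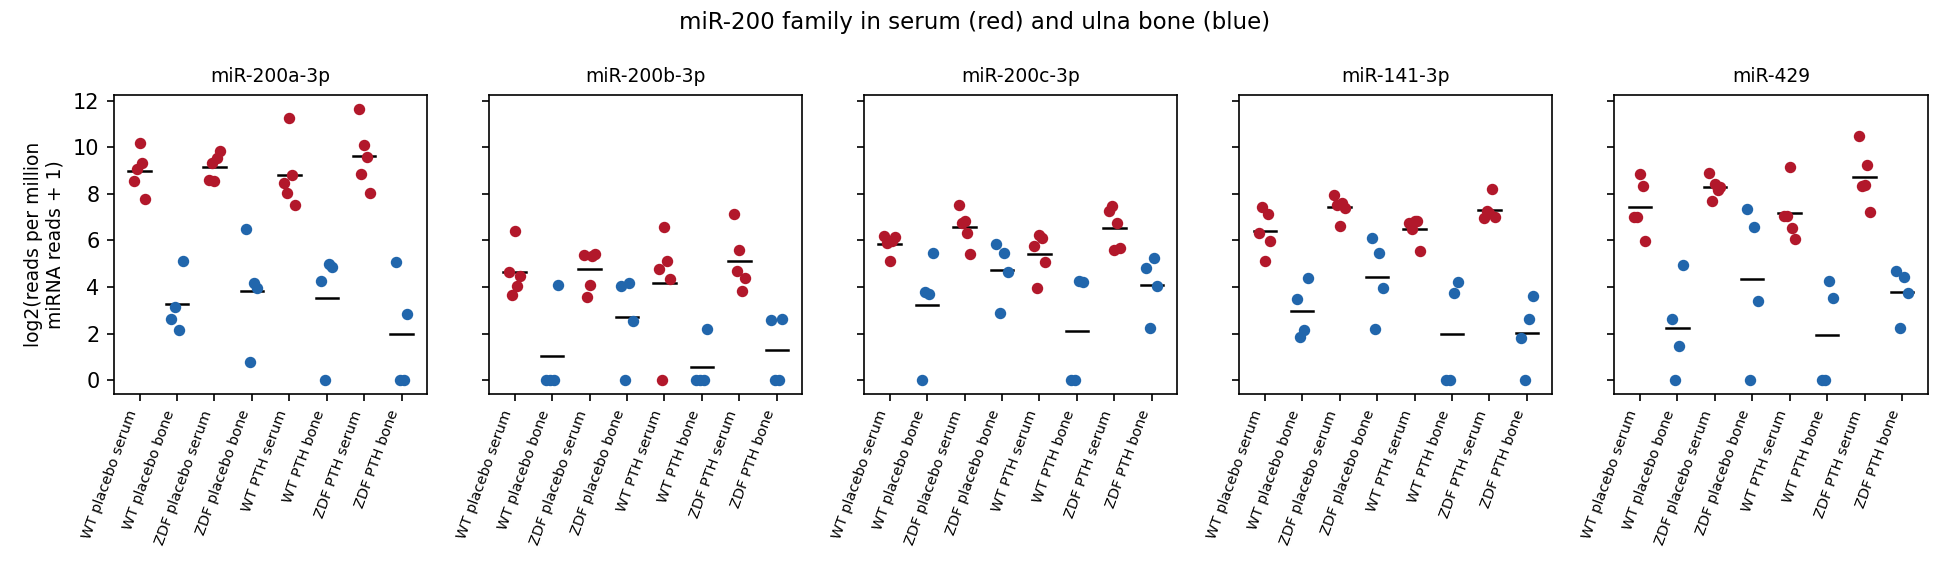
Level of each member in every library of the 4 groups with both tissues. The vertical axis is log2 of reads per 1000000 miRNA reads plus 1, points are single libraries (red, serum, n = 5 per group; blue, bone, n = 4 per group) and bars are means. The gap is widest for miR-200a-3p and narrowest for miR-200c-3p, whose points overlap in both placebo groups.

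The size of these differences and, for miR-200c-3p and miR-200b-3p, their direction depended on what the reads were scaled to. Scaled to all reads of the library instead of to miRNAs, the median of all miRNAs moved up in bone by 1.74 to 2.52 on the log2 scale. Then 2 of 5 members passed as lower in bone in placebo WT, where 5.97% of all miRNAs did, 1 in placebo ZDF (4.02%), 3 in PTH WT (12.2%) and 3 in PTH ZDF (6.60%), and in placebo WT miR-200c-3p passed as higher. MiR-200c-3p was then higher in bone by a log2FC of 1.04 in placebo WT (FDR = 0.196), 0.80 in placebo ZDF (FDR = 0.374) and 0.53 in PTH ZDF (FDR = 0.539), and miR-200b-3p by 0.20 in placebo WT (FDR = 0.839). MiR-141-3p passed as lower only in PTH ZDF (log2FC -0.85, FDR = 0.309, in placebo WT, -0.09, FDR = 0.916, in placebo ZDF and -1.36, FDR = 0.341, in PTH WT). MiR-429 passed as lower in all but placebo ZDF (log2FC -0.14, FDR = 0.867).

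The balance between members does not depend on the scaling, and is given as a log2 ratio of reads with 0.5 reads added to each. The pair of miR-200a-3p and miR-200c-3p was chosen after the values had been seen, as the members with the widest and the narrowest gap, so the ratio is a description with no test. It was 3.03 ± 1.26 (SD, n = 5) in WT placebo serum and -0.25 ± 1.33 (n = 4) in WT placebo bone, and 2.51 ± 1.23 (n = 5) and -0.96 ± 1.35 (n = 4) in ZDF placebo serum and bone. From serum to bone it differed by -2.51 under PTH in WT and by -4.65 under PTH in ZDF. The log2 ratio of the chr5 to the chr4 cluster, also chosen after the values had been seen, differed from serum to bone by -2.76 in placebo WT, -2.28 in placebo ZDF, -1.56 in PTH WT and -2.28 in PTH ZDF. In PTH WT the added reads alone set the ratios of the bone with 0 family reads and all but set those of the bone with 1.

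Other miRNAs known from epithelia did not share one direction. Of 12 listed miRNAs with an entry, 5 were higher and 4 lower in bone in placebo WT (median log2FC -0.14), and 4 were higher and 3 lower in placebo ZDF (median 0.25), against medians over all miRNAs of 0.82 and 1.14. MiR-205, a miRNA of squamous epithelium, was higher in bone (log2FC 2.42 ± 0.50, FDR = 8.93e-06, in placebo WT). MiR-192-5p, abundant in gut, liver and kidney, was lower (log2FC -5.89 ± 0.59, FDR = 4.32e-21), as was miR-375-3p of endocrine cells (log2FC -3.31 ± 0.55, FDR = 2.03e-08).

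The question of whether diabetes changes the family was addressed by placebo ZDF against placebo WT rats. In serum 0 of 5 members passed, where 10.0% of all miRNAs tested did, and 0 of 5 had an unadjusted p below 0.05 and 0 of 5 passed in DESeq2. MiR-141-3p had the largest difference, with 12, 17, 12, 15 and 8 reads in ZDF and 16, 15, 4, 9 and 9 in WT, or 171 ± 57.4 against 87.9 ± 46.0 CPM (SD, n = 5 each). The groups overlapped (log2FC 0.83 ± 0.54, FDR = 0.557), and miR-141-3p passed only with WT placebo serum replicate 2 left out (log2FC 1.27, FDR = 0.196). MiR-200a-3p was at 588 ± 226 CPM in ZDF and 541 ± 341 in WT (log2FC 0.04 ± 0.41). In the same sera 2 of 11 other epithelial miRNAs tested were higher, miR-375-3p (log2FC 2.28 ± 0.38, FDR = 8.36e-07) and miR-192-5p (log2FC 1.71 ± 0.36, FDR = 0.000147).

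**Figure D2:**
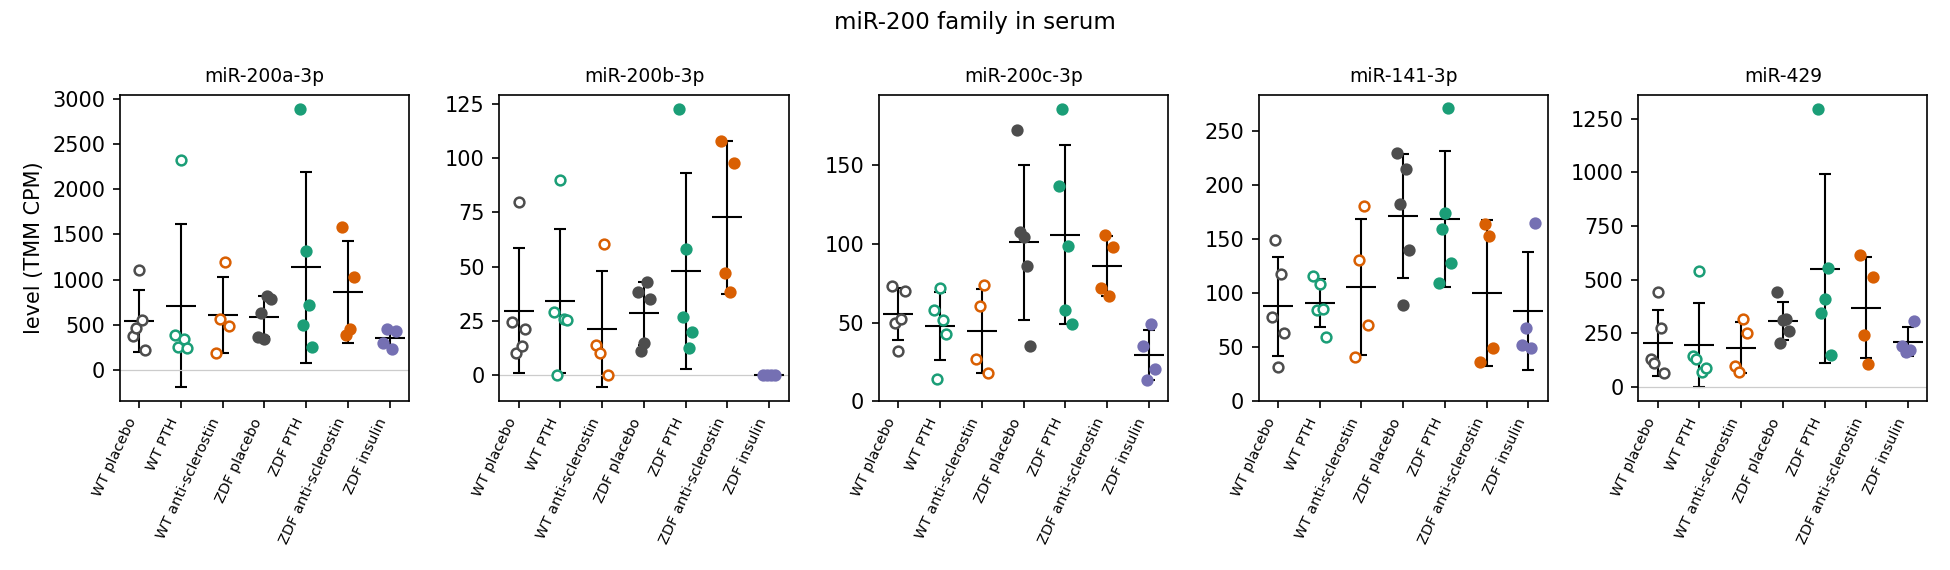
Level of each member in serum by group, as TMM-scaled CPM on a linear axis. Points are rats (open, WT; filled, ZDF), horizontal bars are means and error bars the SD (n = 4 or 5). MiR-200b-3p is at 0 in the 4 insulin sera, and a WT PTH and a ZDF PTH serum stand far above their groups in miR-200a-3p and miR-429.

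Insulin-treated ZDF rats had the lowest median family level of the 7 serum groups, 554 reads per 1000000 miRNA reads, where placebo ZDF rats had 1334. Against placebo ZDF, miR-200c-3p was lower and 0 of 5 members were higher, where 10.4% of all miRNAs tested were lower. MiR-200b-3p also passed as lower. With no insulin read, it passed the abundance filter only through the placebo sera, so it is not set against that share. Family reads were 33 to 51 per library with insulin and 65 to 116 with placebo, from 60344 to 113163 and 48637 to 124422 miRNA reads. MiR-200c-3p had 2, 1, 4 and 1 reads with insulin and 9, 10, 14, 6 and 2 with placebo, or 29.6 ± 15.9 (SD, n = 4) against 101 ± 49.3 CPM (SD, n = 5). The groups overlapped through the placebo serum with 2 reads, and the log2FC was -1.74 ± 0.66 (FDR = 0.0874; exact permutation p = 0.0317).

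MiR-200b-3p had 0 reads in all 4 insulin sera and 2, 1, 2, 3 and 2 in the placebo sera (FDR = 0.0542). Its groups did not overlap (exact permutation p = 0.00794, the smallest the design allows). At these depths 3 reads were worth 26.5 to 49.7 CPM (before TMM scaling) in the insulin sera and the placebo sera held 10.7 to 43.0 CPM, so a single library with 0 reads could not be told from a placebo level by counting. No fold change is given for it.

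The remaining members were lower on average but did not pass in the main fit. MiR-141-3p had 3, 5, 4 and 8 reads with insulin and 12, 17, 12, 15 and 8 with placebo (log2FC -1.10 ± 0.54, FDR = 0.242). MiR-200a-3p had 17, 33, 19 and 21 reads with insulin and 19, 59, 46, 57 and 45 with placebo (log2FC -0.76 ± 0.39, FDR = 0.276). MiR-429 had 11, 12, 14 and 15 reads with insulin and 23, 19, 42, 22 and 15 with placebo, so that insulin reads were at or below the lowest placebo count, but as CPM the groups overlapped (log2FC -0.61 ± 0.45, FDR = 0.505). The log2FC of the members other than miR-200b-3p lay between -1.74 and -0.61, and the median of all miRNAs was -0.18.

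The insulin result moved with the method, also in which members passed. With edgeR's filterByExpr, miR-200b-3p and miR-200c-3p were filtered out. MiR-200a-3p (FDR = 0.188) and miR-141-3p (FDR = 0.172) passed there, where 40 of 151 miRNAs tested did. With edgeR's robust option, miR-200a-3p (FDR = 0.176) and miR-141-3p (FDR = 0.168) passed too. DESeq2 called 0 of 5 members and an FDR below 0.05 also left 0. Scaled to total miRNA reads, miR-200a-3p, miR-200c-3p, miR-141-3p and miR-429 passed as lower, where 22.1% of all miRNAs did. Scaled to all library reads, miR-200a-3p, miR-200c-3p and miR-141-3p passed as lower, where 12.9% did. MiR-200b-3p passed as lower under both scalings, but with no insulin read it is not set against these shares. These scalings moved the median of all miRNAs by -0.28 and -0.24 on the log2 scale. Without insulin serum replicate 3 no member passed, and without placebo serum replicate 3, 4 did, miR-200b-3p among them. For fits with a library left out, the share of all miRNAs passing was not worked out, so these counts cannot be set against one. Blood cell miRNAs differed between the same sera: the summed level of 8 was 255452 to 406342 CPM with insulin and 110024 to 192211 with placebo. None of the 8 was at 0, and 3 were higher and 1 lower, where 17 and 32 of all 309 miRNAs tested were. The red cell miRNA miR-451-5p was among the higher ones (log2FC 2.33 ± 0.31, FDR = 1.76e-11). Their part in the family's difference was not tested. Of 11 other epithelial miRNAs tested, 4 were lower and 0 higher (median log2FC -1.15): miR-192-5p (-1.48, FDR = 0.000207), miR-375-3p (-1.15, FDR = 0.00997), miR-203a-3p (-0.79, FDR = 0.119) and miR-34c-5p (-1.78, FDR = 0.193).

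Anti-sclerostin, an antibody that releases bone formation from the Wnt inhibitor sclerostin, was compared with placebo in each genotype. In WT serum 0 of 5 members passed, where 5.57% of all miRNAs did, and in ZDF serum 0 of 5, where 8.03% did. In both, 0 of 5 had an unadjusted p below 0.05 and DESeq2 called 0, of 5 members it tested in WT and 4 in ZDF. MiR-200b-3p had 3, 8, 4 and 4 reads in ZDF anti-sclerostin sera and 2, 1, 2, 3 and 2 in ZDF placebo sera, or 72.8 ± 35.3 (SD, n = 4) against 28.3 ± 14.6 CPM (n = 5). The groups overlapped, and the edgeR fit gave a log2FC of 1.22 ± 0.75 (FDR = 0.581) beside an exact permutation p of 0.0317. The other log2FC lay between -0.50 and 0.41 in ZDF, and all 5 between -0.32 and 0.31 in WT. The difference between the genotypes in this response passed for 0 of 5 members, where 1.06% of miRNAs did, with 0 of 5 at an unadjusted p below 0.05 and 0 in DESeq2.

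PTH, given here intermittently, which stimulates bone formation, was compared with placebo in the same way. In WT serum 0 of 5 members passed, where 1.08% of all miRNAs did, and their log2FC lay between -0.33 and 0.29. In ZDF serum 0 of 5 passed, where 1.08% did. DESeq2 called 0 of 5 in both. At an unadjusted p below 0.05 there were 0 members in WT and 1 in ZDF, miR-200a-3p. It had 212, 37, 113, 58 and 26 reads with PTH and 19, 59, 46, 57 and 45 with placebo, or 1134 ± 1060 against 588 ± 226 CPM (SD, n = 5 each). The groups overlapped (log2FC 0.92 ± 0.43, FDR = 0.698; exact permutation p = 0.341). MiR-429 and miR-200b-3p, from the same cluster, had log2FC of 0.83 ± 0.46 and 0.82 ± 0.71, and miR-200c-3p and miR-141-3p, from the other, of 0.09 ± 0.56 and 0.08 ± 0.51.

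The genotypes' responses to PTH in serum differed for 0 of 5 members, where 2.25% of miRNAs passed, with 0 of 5 at an unadjusted p below 0.05 and 0 in DESeq2. This call depended on WT PTH serum replicate 3. Without it, 2 members passed, both with a larger response in ZDF, miR-200a-3p (interaction log2FC 1.77 ± 0.64, FDR = 0.129) and miR-429 (1.77 ± 0.71, FDR = 0.199). How many of all miRNAs passed in that fit was not worked out.

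**Figure D3:**
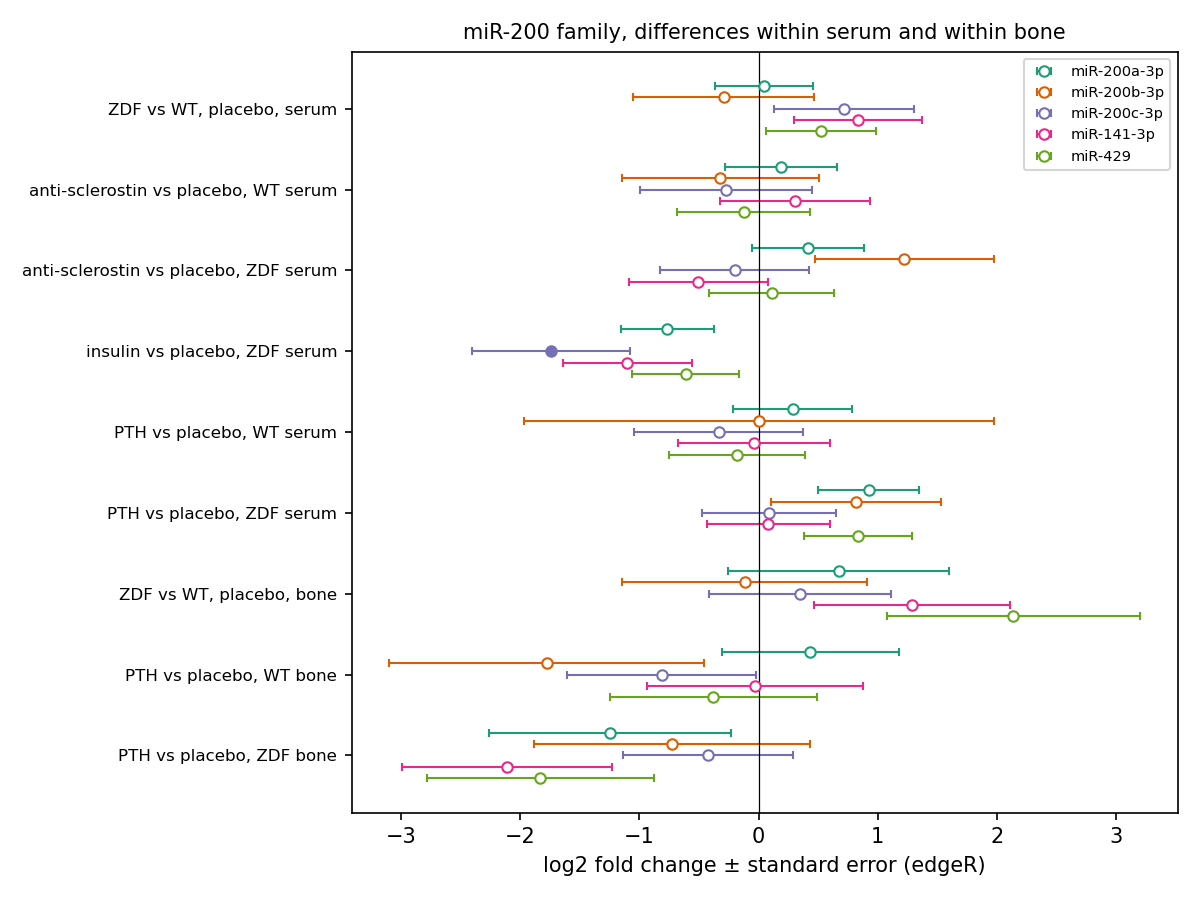
Log2 fold change with its standard error for each member in the 9 comparisons within serum or within bone. Filled points passed FDR < 0.2. Open points did not, or were below the abundance filter and not tested. MiR-200b-3p under insulin is left out because its libraries had 3 reads or fewer. MiR-200c-3p under insulin is the single filled point, and standard errors are wider in bone than in most serum comparisons.

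In bone the family was near the limit of counting in most libraries. For ZDF against WT placebo, all 5 members were below the abundance filter of the main test, so 0 of 5 could pass, where 12.6% of miRNAs tested did, and 0 had an unadjusted p below 0.05. DESeq2, which tested 4, called 0. MiR-429 had 31, 0, 11 and 2 reads in ZDF bones and 1, 0, 1 and 28 in WT bones, or 59.1 ± 71.5 against 11.0 ± 18.0 CPM (SD, n = 4 each), and miR-141-3p had 13, 5, 5 and 3 against 2, 1, 2 and 19. Both overlapped between the groups. The log2FC were 2.14 ± 1.06 and 1.29 ± 0.82 (exact permutation p = 0.371 and 0.229). Leaving out ZDF placebo bone replicate 2 or WT placebo bone replicate 4 let 2 members pass, and the share of all miRNAs passing then was not worked out.

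For PTH against placebo in WT bone, 0 of the 4 members tested passed, where 14.2% of miRNAs did, none had an unadjusted p below 0.05, and DESeq2's own filter left 0 of 5 to test. MiR-200a-3p had 1, 0, 5 and 8 reads with PTH and 1, 3, 2 and 32 with placebo. The WT PTH bones held as few as 41627 miRNA reads, where 3 reads were worth 72.1 CPM before TMM scaling, above the level of any member in any WT bone. For PTH against placebo in ZDF bone, 0 of 5 passed, and edgeR called 0.00% of the 569 miRNAs tested, 42 of them at an unadjusted p below 0.05, while DESeq2 called 1 miRNA, which was not a member. MiR-141-3p, with 1, 0, 1 and 11 reads against 13, 5, 5 and 3, was the member with an unadjusted p below 0.05 (log2FC -2.11 ± 0.88, FDR = 0.641; exact permutation p = 0.114). The interaction of PTH and genotype in bone passed for 0 of the 1 member tested, miR-429, where 3.03% of miRNAs passed, and for 0 of 5 in DESeq2, with 0 at an unadjusted p below 0.05.

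**Figure D4:**
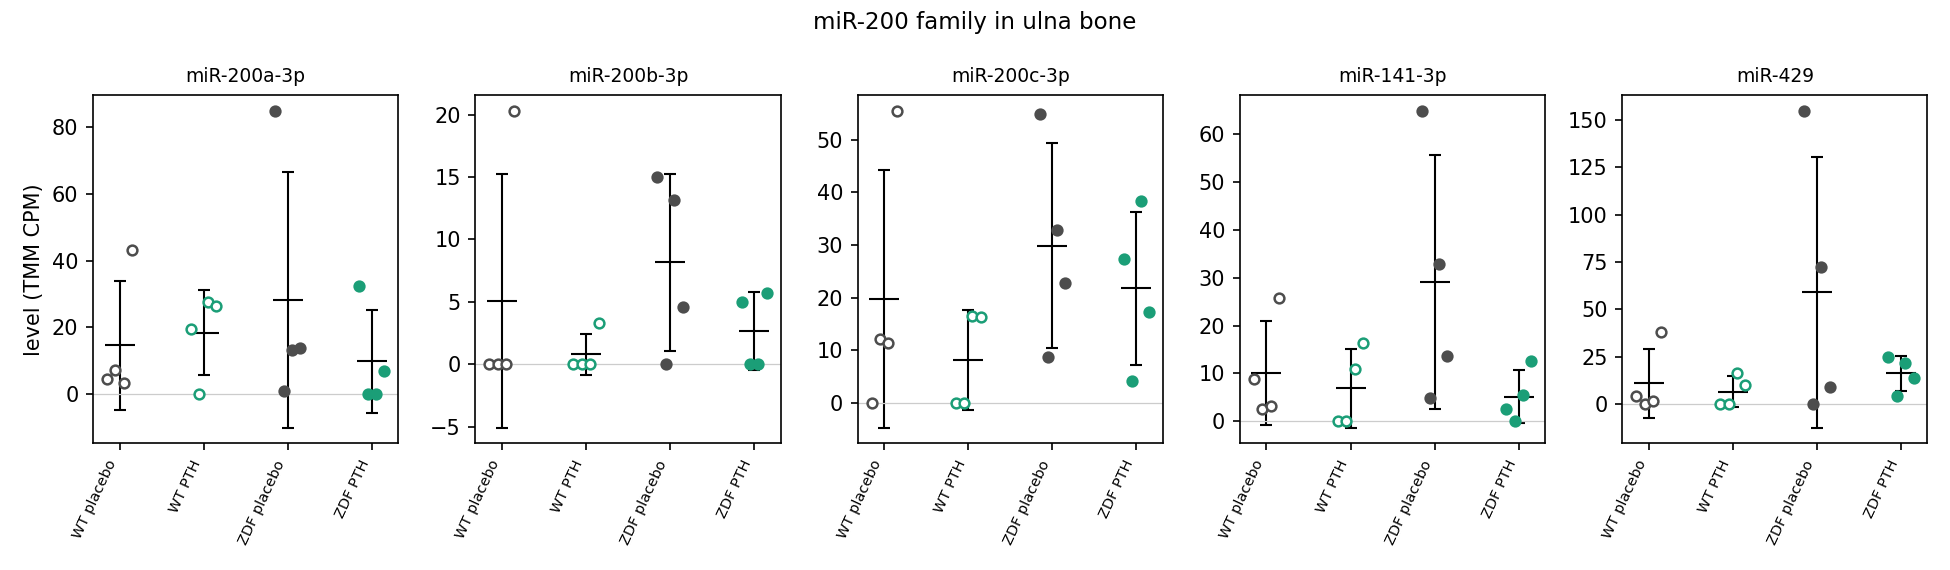
Level of each member in ulna bone by group, as TMM-scaled CPM on a linear axis. Points are libraries (open, WT; filled, ZDF), horizontal bars are means and error bars the SD (n = 4). Most points lie near 0, and WT placebo bone replicate 4 and ZDF placebo bone replicate 1 stand above their groups in several members.

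Ordered by mean level, ZDF PTH serum was highest for miR-200a-3p (1134 ± 1060 CPM), miR-429 (550 ± 442) and miR-200c-3p (106 ± 56.7), and ZDF insulin serum was lowest for miR-200a-3p (353 ± 105), miR-141-3p (83.6 ± 54.6), miR-200c-3p (29.6 ± 15.9) and miR-200b-3p (0 reads). WT anti-sclerostin serum was lowest for miR-429 (182 ± 119 CPM). For miR-200c-3p the 3 ZDF groups other than insulin were above the 3 WT groups. No pair of neighbors in the order differed beyond the spread between rats for any member in either tissue, and the smallest exact permutation p among neighbors was 0.0635, for miR-429 between ZDF placebo and ZDF insulin serum.

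Single sera carried much of the spread of miR-200a-3p and miR-429. WT PTH serum replicate 3 had 129 reads of miR-200a-3p and 30 of miR-429, or 2327 and 541 CPM, where the other 4 sera of its group had 238 to 386 and 68.5 to 145 CPM. The same serum was also highest of its group in miR-200c-3p (72.1 CPM, 4 reads, others 14.1 to 57.9) and lay within its group in miR-141-3p (108 CPM, others 59.4 to 116). ZDF PTH serum replicate 1 had 212 reads of miR-200a-3p and 95 of miR-429, the highest of any serum. It had the lowest miR-141-3p of its group (109 CPM, 8 reads) and the second highest miR-200c-3p (136 CPM, 10 reads). WT placebo serum replicate 3 was highest of its group in miR-200a-3p, miR-429 and miR-200b-3p and lowest in miR-141-3p and miR-200c-3p, with 4 reads each. These 3 sera held 53249, 65498 and 119232 miRNA reads.

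Over the 32 sera, miR-200a-3p and miR-429 had a Spearman rho of 0.721, and miR-200a-3p and miR-200b-3p of 0.575, all from the chr5 cluster. MiR-200a-3p and miR-141-3p, which share a seed but not a cluster, had a rho of 0.276, but miR-200b-3p and miR-200c-3p, which also share a seed across clusters, had one of 0.537. The chr4 pair of miR-200c-3p and miR-141-3p had a rho of 0.474. Over the 16 bones, the highest rho was between members of different clusters, 0.874 for miR-200c-3p and miR-429, and 0.765 for miR-141-3p and miR-429. These values describe libraries that share their scaling and mix all groups, and in bone many rest on a few reads.

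**Figure D5:**
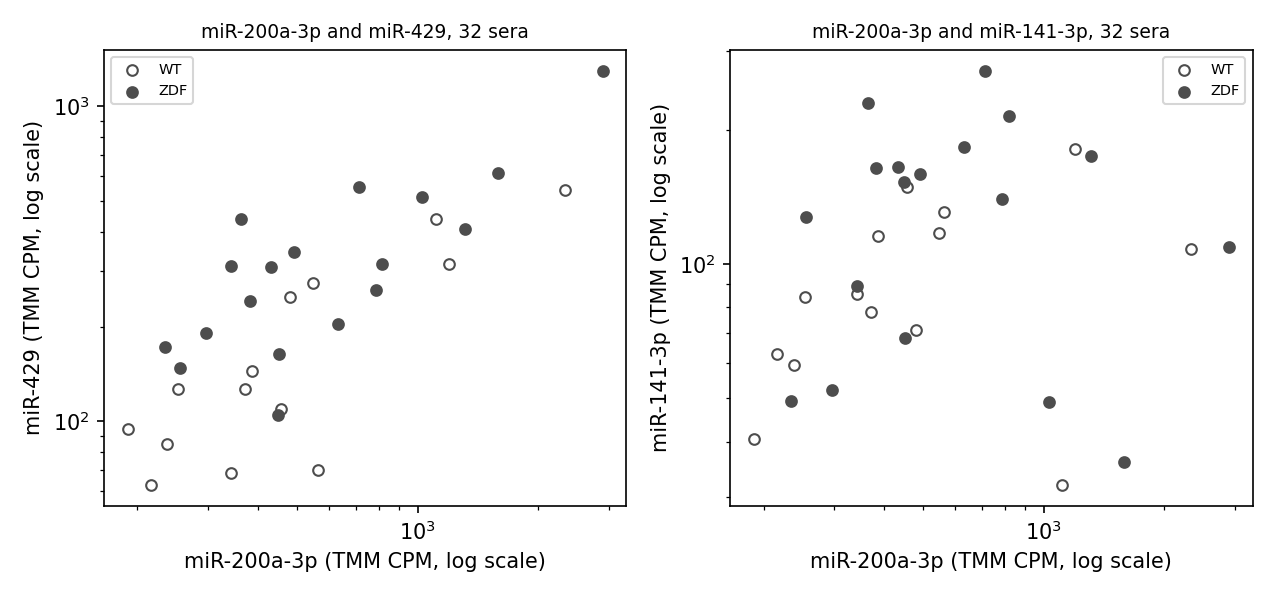
MiR-200a-3p against miR-429 (left) and miR-141-3p (right) in the 32 sera, as TMM-scaled CPM on log axes. Points are rats (open, WT; filled, ZDF). MiR-429 follows miR-200a-3p more closely (rho 0.721) than miR-141-3p does (rho 0.276).

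The miRNAs most like the members were sought by the Spearman rho of levels among 294 miRNAs in serum and 395 in bone. The highest of so many rho values is high by selection alone, and no chance level was worked out. In bone, miR-203a-3p, a miRNA of keratinocytes and on the epithelial list, was nearest to miR-429 (rho 0.79), miR-200c-3p (0.67) and miR-200a-3p (0.599). These members vary together (rho 0.874 for miR-200c-3p and miR-429), so they are not separate findings. MiR-499-3p, from a myosin gene, was nearest to miR-141-3p (0.752). In serum, miR-200a-3p was nearest to miR-146a-5p (0.725), miR-200b-3p to miR-29a-3p (0.67), miR-429 to miR-125b-2-3p (0.635), miR-141-3p to miR-192-5p (0.595) and miR-200c-3p to miR-375-3p (0.524). MiR-200a-3p and miR-429 also had a rho of -0.408 and -0.464 with the number of miRNA reads in a serum.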

How the data were processed

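The authors trimmed reads with cutadapt 3.3, discarded those under 17 nt, used bowtie and miRDeep2 to map the rest to Rnor 6.0 (2 mismatches) and then to rat miRBase (1 mismatch), and deposited counts per mature miRNA. They also deposited RPM values, reads per 1000000 of all library reads, which gave the library totals. Their values scaled to miRNA reads were left aside. Added control sequences were left out.

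Groups were compared in R 4.3.3 with edgeR 4.0.16 (quasi-likelihood test, TMM) on the deposited counts, each fit holding just the groups it compared, for 13 pairs of groups and 3 interactions. MiRNAs with at least 1 read entered, the mean abundance filter was chosen among 50 quantiles up to 0.95, and FDR values are Benjamini-Hochberg adjusted over the miRNAs tested. Bone and serum of the same rats were treated as independent. The SE of a log2FC was derived from the test, as the absolute log2FC over the square root of its F statistic. It is unreliable where the log2FC is very small. Exact two-sided permutation tests (65, unadjusted) used log2 of CPM plus 1. Named were all 5 members, the nearest of the 3 miRNAs most like each, and part of those of the fixed lists that passed. A member with 3 reads or fewer in every library of a comparison got no fold change. Alternatives were RLE and 2 other scalings, DESeq2 1.42.0, other filters and thresholds, other pseudocounts, and each library left out. The fit was tested on simulated data. In 82 pairs of libraries of a group, counts differed beyond sampling noise (chi-squared per degree of freedom at least 12.7). Exact permutation p-values rest on each member's own spread between rats. The edgeR p-values rest on a spread shared among miRNAs. That spread was pooled in full in every bone against serum fit and every fit of a pair of serum groups, the insulin fit among them. There a very small FDR does not measure the member's own spread. The value of 3 reads covers counting error only. The members and lists were chosen with earlier results of these data known.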

Additional observations from a re-analysis of the deposited data

Results flagged for a closer look

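Dixon's test was run on 50 sets, each holding the levels of 1 member in the 4 or 5 libraries of a group. In 8 of them the highest library stood far from the rest. The test's nominal rate of 1 in 20 assumes independent sets and normal values. A library entered several sets and low counts are skewed, so no excess over that rate can be read. In serum these were miR-200a-3p at 2327 CPM and miR-429 at 541 CPM in WT PTH replicate 3, miR-200b-3p at 79.9 CPM (10 reads) in WT placebo replicate 3, and miR-141-3p at 165 CPM (8 reads) in ZDF insulin replicate 4. In bone they were miR-200a-3p at 43.3 CPM (32 reads), miR-200b-3p at 20.3 CPM (15 reads) and miR-429 at 37.9 CPM (28 reads) in WT placebo replicate 4, and miR-200a-3p at 84.9 CPM (17 reads) in ZDF placebo replicate 1. WT placebo bone replicate 4 held 135 family reads of 952131 miRNA reads, and the other 3 bones of its group held 4, 9 and 12 of 195045 to 574989.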

How the results depend on the processing

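The count of members passing FDR < 0.2 changed by more than 1.5 times under these settings. Under insulin it was 2, with miR-200b-3p counted, and became 5 with total miRNA reads, 4 with all library reads, and 0 with DESeq2 or with FDR < 0.05. It stayed 2 with filterByExpr, but for miR-200a-3p and miR-141-3p. In bone it was 0 and became 1, higher, for ZDF against WT with total miRNA reads, where 13 of 254 miRNAs tested were higher. For PTH in WT bone with all library reads it became 2, both lower, where 142 of 430 miRNAs tested were lower. For bone against serum it was 5, all lower in bone, and with all library reads 3 in placebo WT (2 lower and miR-200c-3p higher), 1 in placebo ZDF, 3 in PTH WT and 3 in PTH ZDF. With edgeR's filterByExpr, which kept fewer members, it was 3 in placebo ZDF, 1 in PTH WT and 3 in PTH ZDF, all of those tested. Of all miRNAs tested there, 174 of 202, 147 of 184 and 155 of 190 passed in either direction. With all library reads the direction reversed for miR-200b-3p in placebo WT (0.20) and for miR-200c-3p in placebo WT (1.04), placebo ZDF (0.80) and PTH ZDF (0.53). In the exact test on RPM, miR-200c-3p reversed in placebo ZDF (0.85) and PTH ZDF (0.21). Leaving out 1 library gave 0 to 4 members under insulin, 0 to 1 for ZDF against WT serum, 0 to 2 for ZDF against WT bone, 0 to 2 for the PTH interaction in serum and 4 to 5 for bone against serum in placebo ZDF. Shares of all miRNAs passing were not worked out for these fits. The cause of these changes was not tested. Ratios of members were recomputed, after the data had been seen, with 1 read added and with only libraries of at least 10 family reads. In the latter the cluster ratio in PTH WT was -1.74 from serum to bone and the ratio of miR-200a-3p to miR-200c-3p -2.58. No paired analysis was possible because the labels give no number that links libraries of different groups.

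With 27 to 334 family reads in a serum and 0 to 135 in a bone, reads were few for most members, and a member that did not pass is not shown to be equal between groups.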
